A study of Mus musculus with 48 samples.

Results

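*Serpina3n* was examined mouse by mouse in cerebral cortex RNA-seq of 48 mice. It is 1 gene of the 29069 listed in the *APOE*-TR table or the B6 table, and it is listed in both. It was chosen by its higher CPM (reads of a gene per 1e+06 reads) in *APOE4* than in *APOE3* cortex in an earlier analysis of the same values, so its allele difference is given below as a description, with no test. The 12 groups held 4 mice each and combined sex, genotype and exposure. B6 mice were wild-type C57BL/6J, 4 months old at collection. *APOE*-TR mice, 6 months old, carried human *APOE3* or human *APOE4* in place of mouse *Apoe* (targeted replacement), in every cell and from the mouse locus. Each mouse breathed filtered air (control) or nPM, a nanoscale particulate fraction collected from urban air, for 5 h/day on 3 days/week. The B6 mice were exposed for 8 weeks and the *APOE*-TR mice for 15 weeks, in a different exposure. Genotype class, age, duration, exposure run and library set therefore cannot be told apart between B6 and *APOE*-TR mice. The labels name animals but no litters or cohorts, so p-values measure the spread between these mice.

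Serpins are protease inhibitors that trap their target with a bait loop. *Serpina3n* encodes a secreted serpin that is related to human alpha-1-antichymotrypsin and inhibits granzyme B and neutrophil proteases. In the mouse, the human *SERPINA3* gene corresponds to a cluster of similar genes side by side on chromosome 12. In brain, *Serpina3n* is best known as a gene of reactive astrocytes and of the acute-phase response, induced by cytokines of the interleukin-6 family through STAT3 and by inflammatory signals through NF-kB.

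In mm10 (GRCm38) the gene lies on chromosome 12, plus strand, from 104406708 to 104414330 in the *APOE*-TR table, and the B6 table gives 104406729 as its start. GENCODE places 5 exons there. Exon 1 (104406729 to 104406795) is untranslated, the start codon is in exon 2 at 104408671, and the stop codon is in exon 5 at 104413604. The 250 bases before the RefSeq start (GRCm38.p6, plus strand) are shown for *Serpina3n*, chr12:104406458-104406707, and for *Serpina3f*, chr12:104214294-104214543, a cluster member that differed in the same direction between the alleles (values below). Capitals mark matches to 5 motifs, searched on both strands: STAT (TTCNNNGAA), C/EBP (TTNNGNAA), AP-1 (TGANTCA), the TATA box (searched as TATAAA) and NF-kB (GGGA followed 4 bases later by CC).
Serpina3n: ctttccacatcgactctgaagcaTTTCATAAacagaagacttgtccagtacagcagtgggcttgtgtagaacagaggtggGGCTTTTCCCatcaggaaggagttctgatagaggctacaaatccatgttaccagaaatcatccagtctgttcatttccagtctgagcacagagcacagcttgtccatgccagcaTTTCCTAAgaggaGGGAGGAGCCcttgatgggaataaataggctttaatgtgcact
Serpina3f: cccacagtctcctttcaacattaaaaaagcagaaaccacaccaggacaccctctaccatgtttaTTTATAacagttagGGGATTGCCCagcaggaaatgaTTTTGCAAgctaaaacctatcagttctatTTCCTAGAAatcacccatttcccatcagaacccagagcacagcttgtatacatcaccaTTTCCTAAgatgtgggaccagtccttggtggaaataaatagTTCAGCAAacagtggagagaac
The *Serpina3n* window held 2 matches to the C/EBP letters, at −227 to −220 and −56 to −49 from the start, and 2 to the NF-kB letters, at −170 to −161 and −43 to −34. It held no match to the STAT, AP-1 or TATA letters. Of 32536 mouse promoter windows of the same length, 36.8% held the C/EBP letters, 17.7% the NF-kB letters, 7.04% the STAT letters, 6.73% the AP-1 letters and 12.3% the TATA letters. The *Serpina3f* window held 1 match to the STAT letters. Over 236 aligned bases the windows were 65.3% identical. These are letter matches in the reference genome and not measured binding.

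The deposited values are CPM, and a gene without reads carries the lowest value of its library. The reads assigned to listed genes ran from 17.8 to 31.3 M (1e+06 reads) per *APOE*-TR library and from 2.05 to 24.4 M per B6 library, and *Serpina3n* had 39 to 3988 reads per mouse. Mouse *Apoe*, the replaced gene, was at 164.1 to 503.0 CPM in the 16 B6 mice and at 8.81 to 30.7 CPM in the 32 *APOE*-TR mice. The gene *2210418O10Rik*, known from earlier results to differ between these lines, was at 15.7 to 22.2 CPM in all *APOE3* mice and at 0.197 to 0.671 CPM in all *APOE4* mice. In the *APOE3* female controls 61 and F6 the *Xist* RNA of the inactive X chromosome was at 90.3 and 211.1 CPM against 526.3 to 909.9 CPM in the other 14 *APOE*-TR females, and all values of these libraries summed to 880442 and 792914 against 670445 to 739008 in the others.

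*Serpina3n* was at similar levels in B6 and *APOE3* cortex and several times higher in 14 of the 16 *APOE4* mice. Over both sexes and exposures its level was 13.3 ± 6.21 CPM in B6 mice (SD, n = 16), 10.1 ± 2.20 CPM in *APOE3* mice (SD, n = 16) and 60.9 ± 26.6 CPM in *APOE4* mice (SD, n = 16). *APOE4* females 21 (control) and 23 (nPM) stood apart from the other *APOE4* mice, and without them the *APOE4* level was 67.7 ± 20.4 CPM (SD, n = 14). Because these are bulk samples, more cells of a type and more RNA per cell cannot be told apart.

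In *APOE3* females the 4 controls were at 8.64 (mouse 52), 8.17 (61), 7.91 (63) and 6.49 CPM (F6). The *APOE3* nPM females were at 8.64 (55), 14.4 (59), 11.1 (67) and 8.31 CPM (70). Mouse 59 was the highest of all 16 *APOE3* mice. The *APOE3* male controls were at 9.02 (51), 11.5 (55), 10.9 (63) and 9.999 CPM (73), and the nPM males were at 9.33 (53), 13.0 (56), 13.2 (58) and 11.7 CPM (76). The *APOE3* groups overlapped except that both male groups lay above the female controls. Between the controls of both sexes 21.4% of genes tested were higher in males in this way.

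In *APOE4* females the controls were at 47.6 (7), 19.4 (21), 87.4 (26) and 88.5 CPM (38), and the nPM mice at 49.4 (08), 7.59 (23), 84.1 (27) and 104.7 CPM (39). Female 39 was the highest of all 48 mice, and female 23 lay inside the *APOE3* range. The *APOE4* male controls were at 72.6 (3), 51.8 (21), 57.7 (32) and 56.9 CPM (91). The nPM males were at 95.9 (23), 50.9 (33), 50.04 (65) and 49.7 CPM (93), so that 3 of them lay close together and male 23 well above.

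In B6 females the controls were at 13.2 (40), 10.2 (41), 7.83 (42) and 4.05 CPM (43), and the nPM mice at 6.77 (50), 4.57 (51), 12.8 (52) and 12.2 CPM (53). The lowest of these, mouse 43, rested on 39 reads, with a 95% Poisson interval of 2.81 to 5.40 CPM for counting error only. B6 males were higher. Their controls were at 17.999 (0), 28.8 (2), 18.4 (3) and 18.3 CPM (6), and the nPM males at 15.2 (10), 15.98 (11), 15.4 (12) and 11.3 CPM (16).

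**Figure D1:**
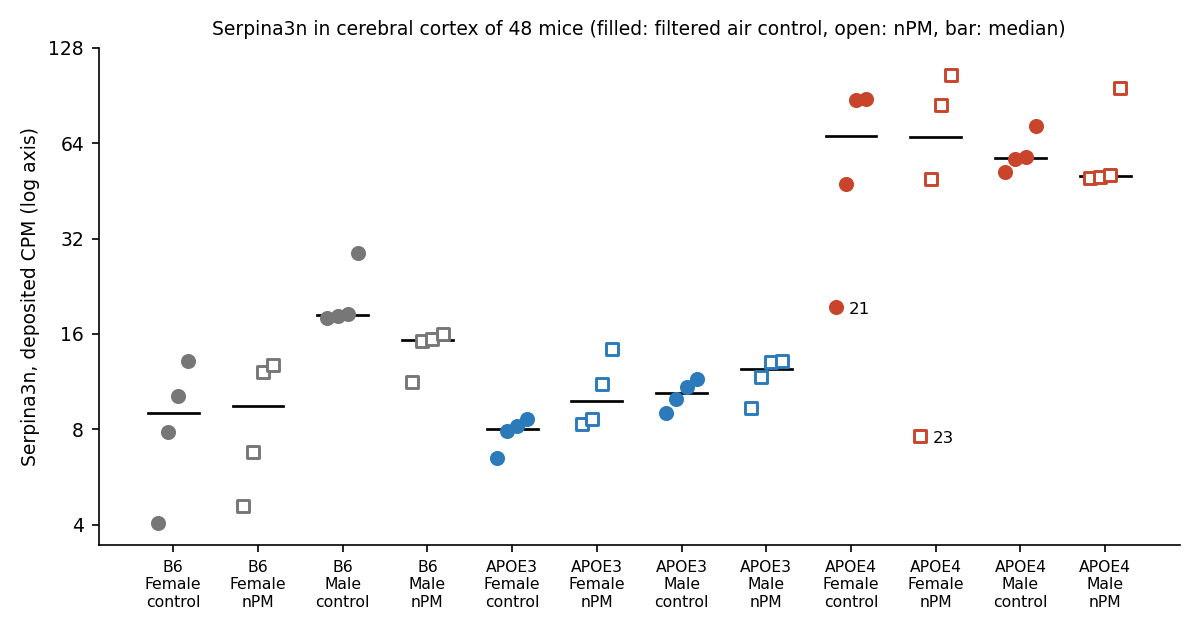
Deposited *Serpina3n* CPM (log axis) of each mouse in the 12 groups, with filled symbols for control, open symbols for nPM and a bar at each group median. The *APOE4* mice other than females 21 and 23 sit between 47.6 and 104.7 CPM, above every B6 and *APOE3* mouse.

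Ordered by their medians, the 12 groups ran from 8.04 CPM in *APOE3* female controls to 67.5 CPM in *APOE4* female controls. *APOE3* and B6 groups were interleaved in the lower 8 places, with B6 males at its top (15.3 CPM with nPM and 18.3 CPM in controls), and the 4 *APOE4* groups took the upper places (50.5 to 67.5 CPM). Between neighbours in this order the ranges of single mice overlapped, with 2 exceptions. B6 male controls lay above B6 nPM males, although their means ± SD overlapped, and *APOE4* nPM males lay above B6 male controls, by 32.1 CPM between medians. The B6 and *APOE*-TR tables were normalised separately, so these levels are side by side and were not tested.

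The allele difference was of like size in the 4 sex and exposure strata when all mice were kept. It was larger in females than in males without *APOE4* females 21 and 23 (values below). With all mice kept, the mean of *APOE4* over that of *APOE3* was 7.78 in control females and 5.80 in nPM females. It was 5.77 in control males and 5.22 in nPM males. On the scale of log2(TMM-scaled CPM + 0.5) the differences were 2.73 (SE 0.438), 2.02 (SE 0.670), 2.47 (SE 0.105) and 2.29 (SE 0.195), and the error was smallest in the males. Over the 32 *APOE*-TR mice the difference was 2.38 (SE 0.234), and it ran from 2.30 to 2.56 when single mice were left out. Without *APOE3* female control 61 it was 2.36, and without F6 2.35. All 8 *APOE4* males were above all 8 *APOE3* males, with the lowest *APOE4* male 3.78 times the highest *APOE3* male, a pattern that 44 of 16567 genes showed in this direction (0.266%). In females 7 of 8 *APOE4* mice were above every *APOE3* female. These values chose the gene and support nothing by themselves. In the 32-mouse fit 951 of 15958 genes passed 5% FDR by allele (5.96%), and nothing is read from the place of *Serpina3n* among them.

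The *APOE4* females 21 and 23 were at the *APOE4* level for genes that tell the lines apart. Female 21 had 591 *Serpina3n* reads, 19.4 CPM with a 95% Poisson interval of 17.8 to 21.0, and female 23 had 214 reads, 7.59 CPM with an interval of 6.58 to 8.64, so counting error does not reach the 47.6 CPM of the next *APOE4* mouse. *2210418O10Rik* was at 0.197 and 0.353 CPM in these females, against 0.232 to 0.671 CPM in the other 14 *APOE4* mice and at least 15.7 CPM in *APOE3* mice. *Ptprh*, a receptor phosphatase gene, was at 1.44 and 1.55 CPM, inside the *APOE4* range of 1.37 to 2.03 CPM and above the *APOE3* range of 0.037 to 0.308 CPM. Without these females the *APOE4* over *APOE3* ratio was 9.54 in control females, 7.496 in nPM females and 6.67 over all mice. The other 14 *APOE4* mice were above all 16 *APOE3* mice. The females were set aside for their low *Serpina3n*, so this separation supports nothing. With these females kept, 15 of 16 *APOE4* mice were above all *APOE3* mice. What separates these females from the rest was not tested.

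The same mice stood apart at other genes of the *Serpina3* cluster. In the *APOE*-TR table *Serpina3m*, the next gene of the cluster, 19.8 kb before it between midpoints, was at 1.05 to 3.90 CPM in the other 14 *APOE4* mice. It had no reads in 12 of 16 *APOE3* mice and 1 to 3 reads in the other 4. The *APOE4* mean was 20.03 times the level of 3 reads a library in *APOE3* mice, and females 21 and 23 had no *Serpina3m* reads at all. *Serpina3f* was at 0.976 CPM on average in *APOE4* and 0.141 CPM in *APOE3* mice (564 and 58 reads in all), a ratio of 6.92. Its males did not overlap, at 1.07 to 2.57 CPM against 0.056 to 0.334 CPM, as 0.266% of genes tested in males did in this direction. Females 21 and 23 had 2 and 0 *Serpina3f* reads. *Serpina3c* had 92 reads in *APOE4* and 13 in *APOE3* mice, and *Serpina3g* was similar in both, at 0.276 and 0.221 CPM on average.

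Another pair of cluster genes differed in the opposite direction. *Serpina3h* was at 0.943 to 3.06 CPM in *APOE3* mice and 0.033 to 0.428 CPM in *APOE4* mice, so that the *APOE3* mean was 8.42 times the *APOE4* mean and the ranges did not overlap. Of 15958 genes with reads in all 32 mice, 24 (0.15%) were lower in *APOE4* in this way. *Serpina3h* had reads in 30 mice and is not among them. Both females 21 and 23 were at 0 *Serpina3h* reads, the only mice of the 32 without any. *Serpina3i* had 185 reads in *APOE3* mice, 4 to 30 in each, and 12 in *APOE4* mice, at most 2 in each. Females 21 and 23 thus lacked the high *Serpina3n*, *Serpina3m* and *Serpina3f* of the other *APOE4* mice without showing the *Serpina3h* level of *APOE3* mice.

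**Figure D2:**
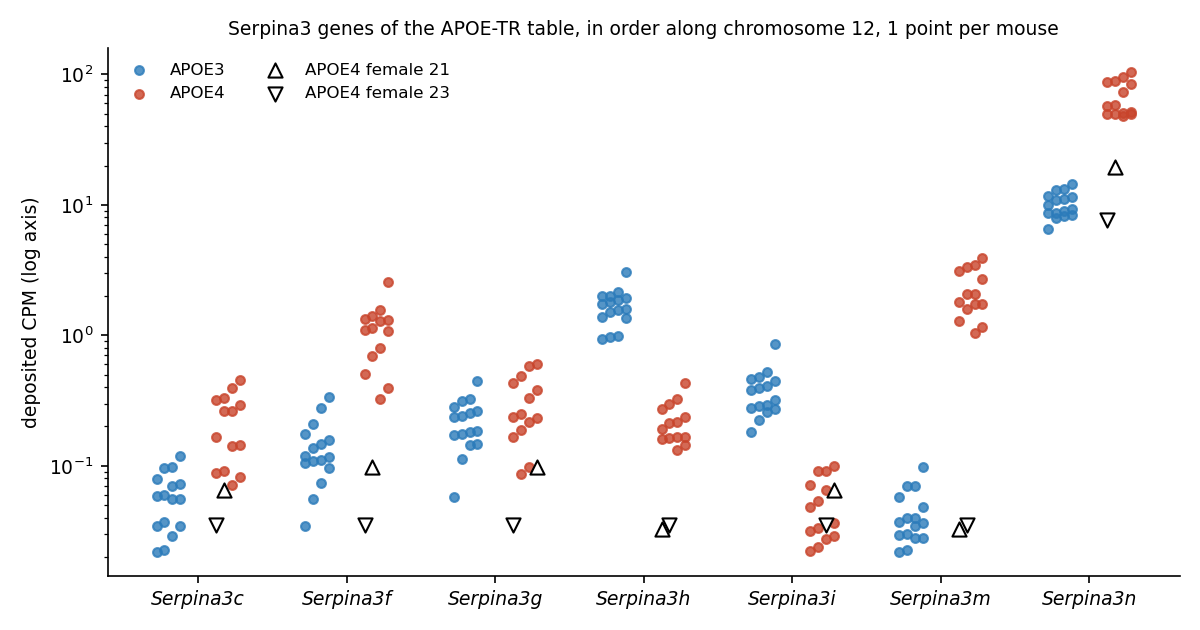
Deposited CPM (log axis) of the 7 listed *Serpina3* genes in the 32 *APOE*-TR mice, in chromosome order, with 1 point per mouse and triangles for *APOE4* females 21 and 23. *Serpina3f*, *Serpina3m* and *Serpina3n* sit higher in *APOE4* mice other than the marked females, and *Serpina3h* and *Serpina3i* sit higher in *APOE3* mice.

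In B6 mice the cluster was close to silent apart from *Serpina3n*. *Serpina3f* had no reads in 14 of 16 B6 mice, *Serpina3c* and *Serpina3g* had none in 13, and *Serpina3a* and *Serpina3b* had none in 13 and 15. The exception was B6 male control 0, with 77 *Serpina3g* reads (3.30 CPM). *Serpina3h*, *Serpina3i* and *Serpina3m* were not analysed in B6.

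Cluster genes resemble each other, which limits how far their reads can be told apart. The *Serpina3n* mRNA (2064 bases) was 85.2% identical to *Serpina3h*, 81.6% to *Serpina3m* and 79.6% to *Serpina3f* over the aligned bases. Of its 2015 windows of 50 bases, 139 (6.90%) occur unchanged in another *Serpina3* transcript and 708 (35.1%) with up to 3 mismatches, the tolerance of the alignment. Uniquely mapped reads alone were kept, so the levels of the low cluster members are uncertain to that extent.

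Other genes near *Serpina3n* differed less between the alleles over the 32 mice. Of 31 genes listed within 1 Mb, *Serpina3n* and 12 others had reads in all 32 *APOE*-TR mice. Of these 12, differences between *APOE4* and *APOE3* ran from −0.45 to 0.41 on the log2 scale, and only *Ifi27*, an interferon-induced gene, passed 5% FDR, at −0.41 (SE 0.095, adjusted p = 0.0104 from limma). The nearest on the distal side, *Dicer1*, the RNase of microRNA maturation, was at 0.36 (SE 0.143, adjusted p = 0.0861) and *Clmn* at 0.41 (SE 0.191, adjusted p = 0.115, both from limma). In control females alone *Dicer1* was at 1.12 (SE 0.365, adjusted p = 0.0773) and *Clmn* at 1.39 (SE 0.565, adjusted p = 0.104, both from limma). In control males *Dicer1* was at 0.05 (SE 0.081) and *Clmn* at 0.02 (SE 0.088). Of all genes, 41.1% had an unadjusted p under 0.05 by limma in control females and 5.81% in control males. The control females include *APOE3* mice 61 and F6, whose *Xist* level and summed values stood apart. Among these 12 genes female 23 lay within the range of the other 6 *APOE4* females at 11, and female 21 at 4. The same shares were not computed over all genes, so nothing is read from these counts.

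**Figure D3:**
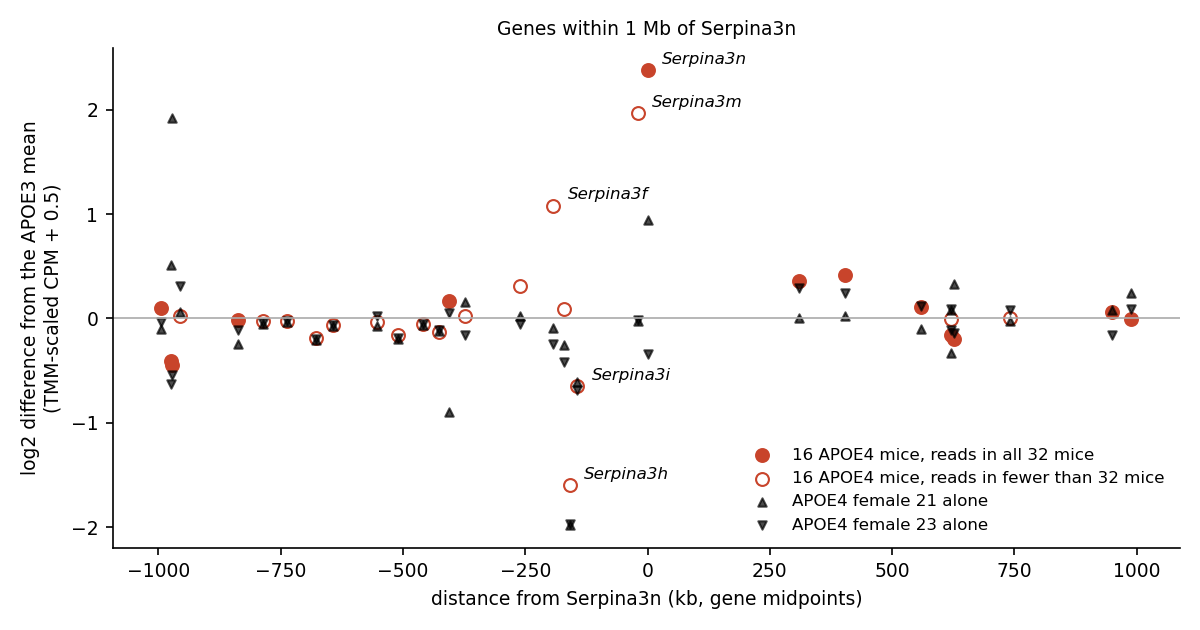
Log2 difference from the *APOE3* mean of the 16 *APOE4* mice (circles, open where fewer than 32 mice had reads) and of females 21 and 23 alone (triangles), by distance from *Serpina3n* in kb between gene midpoints. The mean of the 16 *APOE4* mice lies between −0.45 and 0.41 at the 12 genes other than *Serpina3n* with reads in all mice, and female 21 alone reaches 1.92 at *Ifi27l2a*.

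The levels of cell type markers and of reactive glia genes were set beside these results. The summed CPM of 7 astrocyte markers ran from 2731 to 4057 in *APOE3* and from 3038 to 3764 in *APOE4* mice. They overlapped between the alleles in females but not in males. *APOE4* males were lower, at 3038 to 3359 CPM against 3422 to 3768 CPM in *APOE3* males. Of single genes tested in males, 0.519% were lower in *APOE4* in this way. Mural and meningeal marker sums did not overlap in males either, at 91.2 to 109.6 CPM in *APOE4* and 114.7 to 133.4 CPM in *APOE3*. The sums of the other marker lists overlapped in males. Female 21 had the highest *Gfap*, the intermediate filament of reactive astrocytes, of all 48 mice, at 460.9 CPM against 51.7 to 110.6 CPM in the *APOE4* mice other than females 21 and 23. It also had the highest complement *C4b* of the *APOE4* mice, at 28.3 CPM, and the highest microglial marker sum of the 32, at 474.3 CPM. Female 23 was at 74.3 CPM for *Gfap*, 6.71 CPM for *C4b* and 234.6 CPM for the microglial sum. The mouse with the highest *Serpina3n* among *APOE3* mice, nPM female 59, also had their highest *C4b* (37.8 CPM) and *Gfap* (194.1 CPM). Endothelial markers followed sex in the *APOE*-TR table, at 37.7 to 75.8 CPM in females and 89.3 to 146.5 CPM in males. By sex 60.4% of all genes passed 5% FDR by limma in these mice, where sex and depth cannot be told apart. Choroid plexus markers were uneven, at 9.28 to 1493 CPM in *APOE3* and 20.9 to 1180 CPM in *APOE4* mice. Their median was higher in *APOE4*, at 92.97 against 23.6 CPM in males and 40.4 against 30.1 CPM in females. The part of cell makeup in the *Serpina3n* differences was not tested.

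**Figure D4:**
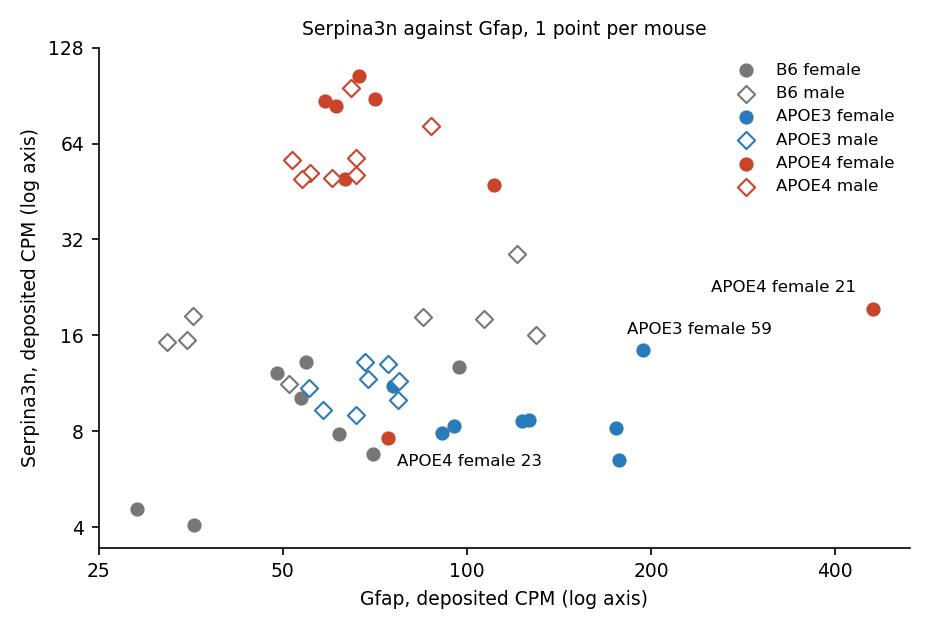
*Serpina3n* against *Gfap* in deposited CPM (both axes log) with 1 point per mouse, coloured by genotype, filled for females and open for males. The *APOE4* mice other than females 21 and 23 sit above all others. Female 23 lies among the *APOE3* mice, with *Gfap* at 74.3 CPM and *Serpina3n* at 7.59 CPM, and female 21 lies at the far right with *Gfap* at 460.9 CPM and *Serpina3n* at 19.4 CPM.

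No nPM effect on *Serpina3n* passed the test. Over all 48 mice the difference between nPM and control was −0.02 on the log2 scale (SE 0.181, adjusted p = 0.976 from limma), and it was 0.04 (SE 0.140) without *APOE4* females 21 and 23. In this fit 0 of 11067 genes passed 5% FDR, 164 had an unadjusted p under 0.005 (1.48%) and 1602 under 0.05 (14.5%).

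By sex and genotype the differences went both ways. In these 6 fits 0 genes passed 5% FDR except 1 in B6 females (0.00679%). At an unadjusted p under 0.05, 10.6% of genes were called in B6 females, 4.31% in B6 males, 21.1% in *APOE3* females, 2.23% in *APOE3* males, 5.59% in *APOE4* females and 4.13% in *APOE4* males. B6 nPM males were lower than B6 control males, at a difference of −0.52 (SE 0.250, adjusted p = 1.00 from limma). All 4 nPM males lay below all 4 controls, as 155 of 15344 genes did (1.01%), and a two-sided exact permutation test gave p = 0.0286, the smallest that 70 labelings allow, or 0.171 adjusted over the 6 strata. In *APOE3* females the difference was 0.45 (SE 0.192, unadjusted p = 0.0455 and adjusted p = 0.229 from limma), with 2 of 4 nPM mice above all controls and an exact permutation p = 0.0571 (0.171 adjusted). It was 0.45 without *APOE3* female control 61, 0.36 without F6 and 0.30 without nPM female 59. *APOE3* males were at 0.18 (SE 0.116, exact permutation p = 0.229), with 3 of 4 nPM mice above all controls, and B6 females at 0.06 (SE 0.401, exact permutation p = 0.886).

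In *APOE4* mice the sign depended on single mice. The *APOE4* female difference was −0.26 (SE 0.734, exact permutation p = 0.8286) and it became 0.09 (SE 0.294) without females 21 and 23. Without 1 mouse at a time it ran from −0.72 without female 21 to 0.55 without female 23. *APOE4* males were at −0.002 (SE 0.190, exact permutation p = 1), where 3 of 4 nPM males lay below all controls and male 23 above them.

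**Figure D5:**
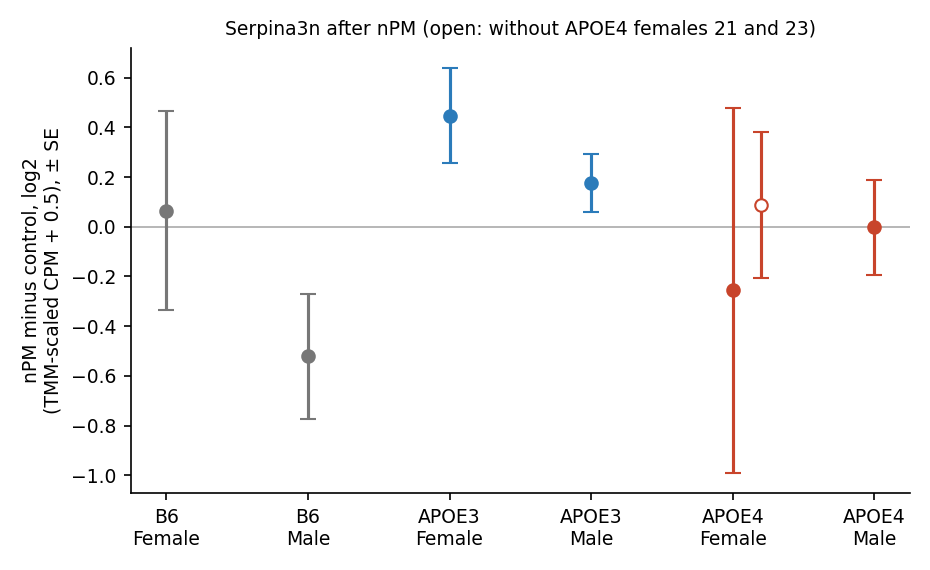
Difference of *Serpina3n* between nPM and control mice on the scale of log2(TMM-scaled CPM + 0.5) for each sex and genotype, with bars of ± SE from limma and an open symbol for *APOE4* females without 21 and 23. The B6 male estimate of −0.52 and the *APOE3* female estimate of 0.45 lie farthest from 0, and none passed 5% FDR.

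Differences of the nPM effect between strata did not pass the test either. The nPM effect in *APOE4* minus that in *APOE3* mice was −0.44 (SE 0.487, adjusted p = 0.632 from limma), and it ran from −0.67 without *APOE4* female 21 to −0.036 without female 23. The nPM effect in females minus that in males was 0.01 in *APOE*-TR mice (SE 0.487, adjusted p = 0.993) and 0.59 in B6 mice (SE 0.484, adjusted p = 0.751, both from limma). The B6 value ran from 0.28 without control female 43 to 0.85 without nPM female 51. For each of these, 0 genes passed 5% FDR, while 10.6%, 18.7% and 8.53% of genes had an unadjusted p under 0.05.

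Sex was linked to *Serpina3n* in B6 mice. B6 females were below B6 males by 1.02 on the log2 scale (−1.02, SE 0.245, adjusted p = 0.00475 from limma), and the estimate stayed between −1.13 and −0.85 and passed 5% FDR without any single mouse. The male over female ratio of means was 2.37 in controls, where all 4 males lay above all 4 females (11% of genes tested), and 1.60 in nPM mice, where 3 of 4 did. In this comparison 26.1% of all genes passed 5% FDR, 13% lower in females. Astrocyte marker sums in B6 mice ran lower in males, at 986 to 2841 CPM against 2320 to 3521 CPM in females. Neuron sums did too, at 2016 to 4851 CPM against 4187 to 6598 CPM, and both pairs of ranges overlapped. Other lists did not share this direction. The median microglial sum was 174.9 CPM in males and 158.7 CPM in females, and the oligodendrocyte sum 2435 and 2190 CPM. Endothelial medians were close, at 88.5 and 91.9 CPM. The part of cell makeup in the B6 *Serpina3n* difference was not tested.

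In *APOE*-TR mice females were at −0.31 from males (SE 0.234, adjusted p = 0.249 from limma), and at −0.02 without females 21 and 23, in a comparison where 60.4% of genes passed 5% FDR (29.8% higher in females) and 64.4% had an unadjusted p under 0.05. The allele difference in females minus that in males was −0.01 (SE 0.487, adjusted p = 0.995 from limma). Without females 21 and 23 it was 0.63 (SE 0.237, adjusted p = 0.0658 from limma). Of all genes, 20.5% passed 5% FDR for this difference between the sexes. Depth did not overlap between the sexes of the *APOE*-TR mice, at 17.8 to 22.3 M reads in females and 22.4 to 31.3 M in males. Sex and depth therefore cannot be told apart in these mice.

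Members of 7 lists of reactive astrocyte, cytokine, acute-phase, protease and other serpin genes were set beside *Serpina3n* by allele. Of 67 tested members, 0 were higher and 7 lower in *APOE4* at 5% FDR by limma in the 32-mouse fit. Of all genes in this fit 2.29% were higher and 3.67% lower, so 0 of 67 higher is near that share and nothing is read from it. Of the 7 lower, 3 were serpins outside the *Serpina3* cluster. Of 9 pan-reactive astrocyte genes with reads in all mice, 0 passed, and their median difference was −0.17. The members with the smallest p were *Cd44*, a hyaluronan receptor (−0.22, SE 0.086), *Osmr*, the oncostatin M receptor (−0.23, SE 0.101), and the ferroxidase ceruloplasmin *Cp* (−0.16, SE 0.074). *Gfap* was at −0.28 (SE 0.186). The A1-reactive list had 1 of 11 called, the interferon-induced GTPase *Gbp2*, at −0.51 (SE 0.113, adjusted p = 0.00686 from limma), and a median of −0.22. The next in it by p were *Iigp1*, another interferon-induced GTPase (−0.52, SE 0.169), and the class I antigen gene *H2-D1* (−0.33, SE 0.108). Without 1 mouse at a time the A1 count ran from 1 to 4. The A2-reactive list had 1 of 9 called, the tetraspan gene *Tm4sf1*, at −0.26 (SE 0.077, adjusted p = 0.0448 from limma), and a median of −0.26, with *B3gnt5* at −0.35 (SE 0.111) and *Emp1* at −0.29 (SE 0.093). Without 1 mouse at a time the A2 count ran from 0 to 4, and it differed from 1 in 27 of 32 cases. The median over all genes was 0.001.

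The cytokine and STAT3 list, which covers the pathway known to induce *Serpina3n*, had 0 of 18 called and a median of 0.01. The kinase gene *Pim1*, a STAT3 target, was at −0.19 (SE 0.061, adjusted p = 0.0568) and the ciliary neurotrophic factor receptor *Cntfr* at 0.32 (SE 0.132, adjusted p = 0.0910, both from limma). *Il6ra*, an interleukin-6 receptor chain, was at 0.26 (SE 0.092, adjusted p = 0.0699), *Stat3* at 0.15 (SE 0.081, adjusted p = 0.169) and its target *Socs3* at 0.16 (SE 0.080, adjusted p = 0.136, all from limma). In control females alone *Pim1* was at −0.25, *Cntfr* at 0.96, *Il6ra* at 0.69, *Stat3* at 0.63 and *Socs3* at 0.38. In control males they were at −0.21, 0.02, 0.25, −0.01 and 0.04 in the same order. None of these passed 5% FDR by limma. Of all genes, 41.1% had an unadjusted p under 0.05 by limma in control females and 5.81% in control males. Among 9 acute-phase products 2 were lower in *APOE4*. Complement *C3* was at −1.52 (SE 0.217, adjusted p = 2.0e-05 from limma), with 0.395 to 6.28 CPM in *APOE3* and 0.121 to 0.519 CPM in *APOE4* mice. *Itih3*, an inter-alpha-trypsin inhibitor heavy chain, was at −0.30 (SE 0.068, adjusted p = 0.00829 from limma), and the metallothionein *Mt2* at −0.33 (SE 0.136) did not pass. Of the protease targets, *Gzmb* (granzyme B), *Cma1* and *Mcpt4* were not analysed here in *APOE*-TR mice, and the 2 tested, *Prtn3* (−0.18, SE 0.061) and *Mmp9* (0.19, SE 0.066), did not pass 5% FDR.

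Of 14 tested serpins outside the *Serpina3* cluster, 3 were lower in *APOE4*. These were *Serpinb1a*, an inhibitor of neutrophil elastase (−0.31, SE 0.086, adjusted p = 0.0304), the heparin cofactor II gene *Serpind1* (−0.28, SE 0.081, adjusted p = 0.0397) and *Serpinb6a* (−0.21, SE 0.064, adjusted p = 0.0449, all from limma). Of all genes in this fit 3.67% were lower. Without 1 mouse at a time the count of these serpins called ran from 0, as without *APOE4* female control 26, to 3. It was 0 of 14 without females 21 and 23 together. By nPM, 0 of 32 list genes tested over 48 mice had an unadjusted p under 0.005 and 5 had one under 0.05, against 1.48% and 14.5% of all genes. These 5 were *Cntfr* (0.34), *Itih3* (−0.31), the protease nexin *Serpine2* (−0.16), *Serpinf1* (−0.45), which encodes PEDF, and *Serpinb6a* (−0.19).

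Likeness to *Serpina3n* within groups was measured after each group mean was subtracted. Among *Serpina3* genes, Pearson's r over the 32 *APOE*-TR mice was 0.93 for *Serpina3m*, 0.84 for *Serpina3c*, 0.80 for *Serpina3f*, 0.55 for *Serpina3g*, 0.43 for *Serpina3h* and 0.03 for *Serpina3i*, and these genes may share reads with it. In the 14 *APOE4* mice without females 21 and 23 r was 0.91, 0.84, 0.71, 0.68, 0.61 and −0.33 in the same order. *Serpina3i* had 11 reads in all in these 14 mice, too few for such a measure. The same holds in *APOE3* mice for *Serpina3m* and *Serpina3c*, with 6 and 13 reads in all. Correlations are given as descriptions, since libraries share depth and cell makeup.

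Among genes with reads in all 32 mice the 8 with the highest r were *Homez* (0.83), *Cfap74* (0.73), *C1rb* (0.66), *9030617O03Rik* (0.65), *Galnt11* (0.65), *Uchl1os* (0.64), *Jun* (0.64) and *A330076H08Rik* (0.64). The 4 lowest were *Gm1943* (−0.74), *Cort* (−0.68), *Tor4a* (−0.66) and *Nudt3* (−0.64), while the middle 95% of 15957 genes lay between −0.38 and 0.35. Much of this rested on females 21 and 23. Without them r was 0.28 for *Homez*, 0.59 for the complement protease gene *C1rb* and 0.57 for the immediate early gene *Jun*, and 0 of these 8 remained among the 8 highest. *Homez* was at 12.3 and 11.4 CPM in females 21 and 23 and at 13.8 to 15.6 CPM in the other *APOE4* females.

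Of the reactive astrocyte and complement genes examined, *C4b*, *Vim* and *Gfap* had r above 0 in *APOE3* and B6 mice and below 0 in the 14 *APOE4* mice without females 21 and 23, where rho for *Gfap* was 0.02. For *C4b* r was 0.65 in 16 *APOE3* mice (Spearman's rho 0.58), 0.45 in 16 B6 mice (rho 0.59) and −0.38 in the 14 *APOE4* mice (rho −0.35). For *Vim*, an intermediate filament, it was 0.58, 0.23 and −0.43, and for *Gfap* 0.26, 0.45 and −0.13. *Stat3* was at 0.49, 0.19 and −0.70, and *Cd44* at 0.20, 0.14 and −0.11. *Osmr* was the exception, with 0.45 in *APOE3*, −0.48 in B6 and 0.59 in these *APOE4* mice. No difference between these correlations was tested. In the 16 B6 mice the 4 genes with the highest r were *Med10* (0.89), *Tsr2* (0.88), *Colgalt2* (0.83) and *Gm44870* (0.82), against a middle 95% of −0.55 to 0.56 over 13838 genes, and B6 depth differed widely between mice.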

How the data were processed

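Cerebral cortex RNA of 48 mice was sequenced as stranded mRNA libraries with single-end reads. The authors aligned reads to mm10 with TopHat2 2.0.8b, kept uniquely mapping reads with up to 3 mismatches and quantified RefSeq genes in Partek Flow, per the study's methods. The deposited values are CPM (reads of a gene per 1e+06 reads), in a table of 32 *APOE*-TR mice (18943 entries) and a table of 16 B6 mice (27086 entries), each normalised by the authors on its own. From each of them 4 entries of repeated symbols were left out, and 0 columns of per-sample values were left unused. 1 *APOE3* female control column (F6) matched a group and no single sample, and was used by its group.

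Each library's lowest value was that of a gene without reads, so reads were taken as value over lowest value, minus 1. In *APOE*-TR mice, 94.4% of values under 100 reads fell within 0.05 reads of a whole number. Libraries held 17.8 to 31.3 M (1e+06) assigned reads in *APOE*-TR and 2.05 to 24.4 M in B6 mice. Poisson intervals and floors of 3 reads cover counting error only.

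Genes above the no-read level in every mouse of a comparison were tested with limma 3.58.1 (R 4.3.3, trend) on log2(CPM scaled by TMM from edgeR 4.0.16 + 0.5), with Benjamini-Hochberg adjustment at 5% FDR. A fold change on this scale understates that of low genes. The 48-mouse model held sex, genotype and nPM. For nPM an exact permutation test (two-sided, 70 labelings) was added in each of 6 strata. Alternatives were edgeR's quasi-likelihood test and DESeq2 1.42.0 on recovered reads (*APOE*-TR mice), voom, other scalings, filters and pseudocounts, ComBat from sva 3.50.0, and leaving out single mice. In the allele comparison limma called 951 genes, edgeR 953 and DESeq2 2002. Scripts were tested on simulated data. Levels, ratios and correlations were computed in Python 3.11.15 (SciPy 1.17.1, pandas 2.3.3).

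*Serpina3n*, the gene lists and the tests were chosen with earlier results of these data known. Named genes were the *Serpina3* genes, tested genes within 1e+06 bases, the 3 members of each list with the smallest p by allele and by nPM, and the 8 highest and 4 lowest by within-group Pearson's r in *APOE*-TR mice and the 4 highest in B6 mice. The other genes named, among them *Gfap*, *Vim*, *C4b*, *Stat3*, *Socs3* and the 5 at an unadjusted nPM p under 0.05, were chosen after their values were seen, as were *APOE4* females 21 and 23. Sequences came from RefSeq (GRCm38.p6) and gene models from GENCODE (GRCm38).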

Additional observations from a re-analysis of the deposited data

Results flagged for a closer look

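Single mice stood apart within their group in 3 of the 12 *Serpina3n* groups, as the gap to the nearest of the other mice took up nearly the whole range of the group. B6 male control 2 was the highest of its 4 mice, at 28.8 CPM. B6 nPM male 16 was the lowest of its 4 mice, at 11.3 CPM. *APOE4* nPM male 23 was the highest of its 4 mice, at 95.9 CPM. Of 23 sets of 4 mice at other *Serpina3* genes, 2 held such a mouse. *APOE4* nPM male 23 was also the highest for *Serpina3f*, at 2.57 CPM, and *APOE3* nPM male 76 was the highest for *Serpina3h*, at 3.06 CPM. The *APOE4* females 21 and 23 were the lowest of their groups but did not stand apart by this measure, since the other 3 mice of each group were themselves spread out. Chance marks about 1 in 20 groups in this way.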

How the results depend on the processing

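Of 375 values recomputed under alternatives other than leaving out 1 mouse, 314 were counted as the same, 13 turned their direction and 48 moved. For tested *Serpina3n* differences the same meant an unchanged direction and side of 5% FDR. For allele differences and genotype levels it meant a shift smaller than the within-group SD. For counts of list genes or of the most alike genes it meant a count close to the main one. The *Serpina3n* allele difference was positive in every setting run, at 2.23 to 2.67 over 32 mice. The B6 sex difference passed 5% FDR in every setting, with adjusted p from 0.00345 to 0.00966 by limma where no mouse was left out. Differences by nPM near 0 changed sign, over all mice to 0.040 without *APOE4* females 21 and 23, 0.091 in *APOE*-TR mice alone and 0.085 in females alone. In *APOE4* females the nPM difference became 0.019 by edgeR, 0.021 by DESeq2 and 0.087 without 21 and 23, and in *APOE4* males 0.00098 by voom, 0.053 by edgeR and 0.048 by DESeq2. The nPM by sex difference in *APOE*-TR mice was −0.019 without further scaling. The allele by sex difference was 0.33 by edgeR, 0.33 by DESeq2 and 0.63 without 21 and 23. Leaving out 1 mouse gave −0.074 to 0.098 for nPM over all mice, −0.24 to 0.33 in B6 females, −0.72 to 0.55 in *APOE4* females, −0.23 to 0.10 in *APOE4* males, −0.23 to 0.41 for nPM by sex in *APOE*-TR mice and −0.22 to 0.40 for allele by sex.

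The count of list genes called by allele, 7, was 15 by DESeq2, 0 in the 48-mouse model, 0 in control females, 14 in females, 1 in control males and 1 in males, and 3 to 15 without 1 mouse. Of all genes, limma called 5.96% in the main fit, 0.38% in the 48-mouse model and 0.232% in control females. The share was 23.7% in females, 0.433% in control males and 1.8% in males, and DESeq2 called 2002 genes. By nPM the count of list genes was 0 to 1 without 1 mouse. Of the 8 genes most like *Serpina3n* in *APOE*-TR mice, 1 remained by Spearman's rho, 4 without *APOE3* female controls, 4 without *APOE4* female controls, 0 without *APOE4* nPM females, 5 without *APOE4* nPM males, 0 without females 21 and 23, and 1 to 8 without 1 mouse. Of the 4 in B6 mice, 1 remained by rho, 0 without female controls, 1 without nPM females, 2 without male controls, 1 without nPM males, and 1 to 4 without 1 mouse. The cause was not tested. Leaving out females 21 and 23 together was chosen after seeing the data. No paired analysis was possible because no pair of compared groups of 4 mice shares 2 or more animal numbers. Groups of 4 and, in B6 mice, depth limit what could be detected.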

Other observations

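The *APOE4* females carry close animal numbers in both exposures, which was seen after their values were known. Controls 7, 21, 26 and 38 were at 47.6, 19.4, 87.4 and 88.5 CPM of *Serpina3n*, and nPM females 08, 23, 27 and 39 were at 49.4, 7.59, 84.1 and 104.7 CPM. The labels do not say what the numbers stand for, so these mice were not paired.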
